A study of Mus musculus with 48 samples.

Results

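The 10 genes described here encode adipokines and other factors that fat cells secrete: Adipoq, Lep, Retn, Cfd, Nampt, Rbp4, Angptl4, Nrg4, Metrnl and Apln. They were chosen by gene symbol, and all 10 were found among the 55450 gene identifiers of both count tables. Adipose tissue is an endocrine organ as well as a lipid store, and its hormones act on appetite, insulin sensitivity, blood vessels and the complement system. Several of these genes are switched on only as a precursor cell fills with lipid under the control of PPARγ and the C/EBP factors, so they are widely used as marks of the mature fat cell. Others, such as Nampt, serve housekeeping metabolism in most cells and are secreted in addition.

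RNA-seq was made from 48 mouse cultures of the C57BL/6 background, in 16 groups of 3 libraries each. The WT groups were compared with DKO groups, whose mice lack both Hmgn1 and Hmgn2, the genes of the nucleosome-binding proteins HMGN1 and HMGN2. Preadipocytes, the stromal precursors of inguinal white fat (iWAT) of mice 8 to 12 weeks old, were collected at days 0, 3, 6 and 9, and MEFs, mouse embryonic fibroblasts, at days 0, 4, 8 and 12. Cells of both genotypes received insulin, dexamethasone, IBMX, T3 and rosiglitazone, a PPARγ agonist, for 4 days in preadipocytes and 8 days in MEFs, and a maintenance medium for 4 more days. Both are mixed primary cultures, in which the deletions are present from conception in every cell. The cultures are named here by genotype, cell type and day. Nothing in the labels ties the 3 libraries of a group to separate animals, so p-values measure the spread between these libraries.

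Library totals ranged from 19809397 to 36006696 counts in preadipocytes and from 18962483 to 33083213 counts in MEFs. The targeted genes were read first. Hmgn2 had 0 to 10 counts in the 24 DKO libraries and 744 to 6069 counts in the WT libraries. Hmgn1 transcript was still counted in the DKO, at 69.7 to 114 CPM (counts scaled to the library total), against 77.0 to 218 CPM in WT, and at preadipocyte day 9 the genotypes overlapped, so Hmgn1 counts per gene do not separate them. Libraries of 1 group differed by more than sampling noise in every pair.

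4 MEF libraries went against their labelled day. The library labelled WT day 4 replicate 1 had a correlation of 0.973 with its own group and 0.993 with WT day 8, and the library labelled WT day 8 replicate 2 had 0.965 with its own group and 0.990 with WT day 4. Likewise the library labelled DKO day 4 replicate 3 lay closer to DKO day 8 (0.992 against 0.983), and the library labelled DKO day 8 replicate 3 lay closer to DKO day 4 (0.990 against 0.963). They were kept under their labels, and called MEF results that rest on days 4 or 8 are also given without them. As they were picked for resembling the other day, leaving them out by itself narrows the groups and sets days 4 and 8 further apart. Calls gained only in that setting are therefore not independent results. In preadipocytes every library was closest to its own day among those of its genotype. Some libraries lay closer to the other genotype of their day than to their own group. In preadipocytes these were DKO day 0 replicate 1 (0.984 against 0.977), DKO day 3 replicate 1 (0.983 against 0.979) and WT day 3 replicate 3 (0.986 against 0.984). In MEFs they were DKO day 0 replicate 1 (0.990 against 0.968) and DKO day 4 replicate 2 (0.985 against 0.980).

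Promoter windows of the members are shown to set genes that had little or no transcript in undifferentiated cells beside genes that were already transcribed there. RefSeq (GRCm38.p6, mm10) gave a window of 300 bases, 250 before and 50 after the transcript start, for 9 of the 10 members. Capitals mark a match on either strand to one of 5 motifs, which are the core promoter element TATAAA, the NF-Y element CCAAT, the Sp1 element GGGCGG, the core element AGGTCA of nuclear receptors and the C/EBP element TTGCNNAA. Of 32851 mouse promoter windows, 13.6% held TATAAA, 37.4% CCAAT, 35.7% GGGCGG, 16.3% AGGTCA and 10.8% TTGCNNAA. A match is a run of letters and not a mapped binding site. The first 4 windows belong to Adipoq (chr16:23146286-23146585, plus strand), Retn (chr8:3655520-3655819, plus strand), Cfd (chr10:79890603-79890902, plus strand) and Nrg4 (chr9:55283576-55283875, minus strand), which had at most 87 counts in any library at day 0.
Adipoq: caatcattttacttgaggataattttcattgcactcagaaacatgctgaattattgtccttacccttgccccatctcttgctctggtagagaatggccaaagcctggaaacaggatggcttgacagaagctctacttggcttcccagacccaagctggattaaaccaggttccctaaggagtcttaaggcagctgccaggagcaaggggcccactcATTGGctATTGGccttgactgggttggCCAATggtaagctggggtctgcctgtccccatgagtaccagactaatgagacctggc
Retn: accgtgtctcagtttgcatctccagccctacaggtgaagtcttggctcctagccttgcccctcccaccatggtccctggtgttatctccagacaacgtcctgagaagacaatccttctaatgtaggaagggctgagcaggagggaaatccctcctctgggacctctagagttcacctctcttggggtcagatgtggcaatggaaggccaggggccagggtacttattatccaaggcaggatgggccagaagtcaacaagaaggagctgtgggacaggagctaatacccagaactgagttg
Cfd: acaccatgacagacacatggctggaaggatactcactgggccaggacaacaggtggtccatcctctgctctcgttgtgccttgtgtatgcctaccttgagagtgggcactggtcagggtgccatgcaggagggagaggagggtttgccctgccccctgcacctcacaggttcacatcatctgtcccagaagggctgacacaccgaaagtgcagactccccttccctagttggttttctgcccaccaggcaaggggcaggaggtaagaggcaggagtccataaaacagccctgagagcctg
Nrg4: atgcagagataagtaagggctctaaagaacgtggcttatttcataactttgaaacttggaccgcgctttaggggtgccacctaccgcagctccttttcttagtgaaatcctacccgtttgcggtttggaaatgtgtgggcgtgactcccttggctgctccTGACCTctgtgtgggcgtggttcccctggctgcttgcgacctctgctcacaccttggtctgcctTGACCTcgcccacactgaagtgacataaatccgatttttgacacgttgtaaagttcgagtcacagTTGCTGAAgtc
The next 3 belong to Nampt (chr12:32820085-32820384, plus strand), Metrnl (chr11:121702177-121702476, plus strand) and the inner of the 2 RefSeq starts of Rbp4 (chr19:38124762-38125061, minus strand). Nampt and Metrnl had 494 to 3119 counts in the libraries of day 0, and Rbp4, with 1 to 94, lay nearer the first set.
Nampt: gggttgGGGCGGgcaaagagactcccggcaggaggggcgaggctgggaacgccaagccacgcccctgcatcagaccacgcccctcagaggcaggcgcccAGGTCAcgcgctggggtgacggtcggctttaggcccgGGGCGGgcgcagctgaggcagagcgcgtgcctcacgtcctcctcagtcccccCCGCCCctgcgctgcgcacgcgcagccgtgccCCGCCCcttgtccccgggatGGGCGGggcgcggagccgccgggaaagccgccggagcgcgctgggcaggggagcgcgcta
Metrnl: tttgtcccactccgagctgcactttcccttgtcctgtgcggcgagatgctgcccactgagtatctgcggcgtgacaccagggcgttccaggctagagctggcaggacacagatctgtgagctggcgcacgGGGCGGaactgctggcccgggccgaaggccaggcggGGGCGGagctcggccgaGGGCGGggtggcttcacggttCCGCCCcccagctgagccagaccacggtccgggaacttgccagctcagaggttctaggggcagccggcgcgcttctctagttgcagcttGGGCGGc
Rbp4: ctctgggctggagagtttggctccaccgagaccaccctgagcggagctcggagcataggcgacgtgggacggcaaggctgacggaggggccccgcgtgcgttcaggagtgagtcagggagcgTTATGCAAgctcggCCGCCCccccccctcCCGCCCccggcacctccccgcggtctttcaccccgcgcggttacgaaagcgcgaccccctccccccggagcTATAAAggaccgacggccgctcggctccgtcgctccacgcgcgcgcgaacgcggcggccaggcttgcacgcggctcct
CpG dinucleotides numbered 0 in the Adipoq window, 2 each in those of Retn and Cfd and 13 in that of Nrg4, against 36 in Nampt, 24 in Metrnl and 40 in this Rbp4 start, where the median of all windows was 7. The outer RefSeq start of Rbp4, not printed, had 5. Lep and Apln, also not printed, had 19 and 15. The Lep window held a GGGCGG match, though Lep averaged only 0 to 0.00303 CPM per kilobase of exon in the day 0 groups. The number of CpG thus did not separate the members by their day 0 transcript. The Adipoq window held 3 CCAAT matches, all within 34 bases of the start, and neither the Retn nor the Cfd window held any of the 5 motifs. Nrg4 had 2 AGGTCA matches, while Nampt and Metrnl had 5 GGGCGG matches each. The Rbp4 start had TATAAA 28 bases before it. These are descriptions of the sequence, and no binding or chromatin data were analysed here.

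The levels of the 10 genes spanned several orders of magnitude once the cells had differentiated. Per kilobase of exon, Adipoq (chr16:23146536-23158028, plus strand) stood first at the last day in all 4 groups, at 959 ± 23.7 CPM per kb (SD, n = 3) in WT preadipocytes and 580.5 ± 6.43 in WT MEFs. In WT preadipocytes at day 9 it ranked 25 of 21951 protein-coding genes. Rbp4 (209 ± 21.4 CPM per kb) and Retn (197 ± 13.9) followed in WT preadipocytes, with overlapping libraries, then Angptl4 (127 ± 3.39), Nampt (113 ± 2.33) and Cfd (98.9 ± 5.92), each apart from the next. Metrnl (14.1 ± 1.95) and Apln (12.9 ± 0.257) overlapped, Nrg4 was at 0.826 ± 0.118 and Lep at 0.0307 ± 0.0414. In WT MEFs at day 12 the order was Adipoq, Retn (149.6 ± 5.57), Angptl4 (70.2 ± 3.20), Cfd (52.4 ± 2.67), Nampt (38.0 ± 0.110), Rbp4 (26.5 ± 1.14), Metrnl (12.8 ± 1.36), Apln (2.77 ± 0.0973), Nrg4 (0.455 ± 0.106) and Lep (0.286 ± 0.0518), with no overlap between neighbours. At day 0 another order held. Angptl4 (19.2 ± 2.52 CPM per kb) and Metrnl (15.7 ± 1.36) overlapped at the top in WT preadipocytes, and Metrnl led in WT MEFs at 24.1 ± 1.295.

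The next comparisons asked how the genes changed from day to day. A gene was called when edgeR's Benjamini-Hochberg adjusted p over all tested genes was under 0.05 and the change was at least 1.5-fold. In preadipocytes from day 0 to day 3, 8 of the 9 tested members were called in WT (7 higher, 1 lower; 23.2% of all genes were called) and 9 of 9 in DKO (8 higher, 1 lower; 28.4% of all genes). From day 3 to day 6, 8 of 9 were called in each genotype, 7 higher and Apln lower (45.3% of all genes in WT and 49.7% in DKO). From day 6 to day 9, WT had 3 calls and DKO 2, all higher (13.1% and 11% of all genes). In MEFs from day 0 to day 4, 9 of 10 were called in WT and 10 of 10 in DKO, of which Metrnl alone fell (31.6% and 28.3% of all genes). Without the 4 libraries that lay closer to another day, 8 of 10 were called in WT, where Lep lost its call, and 9 of 10 in DKO, where Nrg4 did (34% and 29.6% of all genes). From day 8 to day 12, 5 were called in WT and 4 in DKO, with Apln the one that fell (19.6% and 23.9% of all genes). Without the same libraries 7 were called in WT, with Adipoq and Lep added, and 5 in DKO, with Adipoq added (20.5% and 23.1% of all genes). From day 4 to day 8 edgeR called 0 of 10 in either genotype, where 0.406% of all genes in WT and 0.341% in DKO were called, and 2 members in each had an unadjusted p under 0.05. DESeq2 also called 0 in both. Without the 4 libraries that lay closer to another day, 7 members were called higher in WT (19.9% of all genes) and 6 in DKO (14.0%). That selection by itself sets days 4 and 8 further apart, so these counts are no independent test of a change. Bulk RNA cannot tell more fat cells from more transcript per fat cell. Macrophage markers also rose between preadipocyte days 3 and 6 (values below), so the cultures of these days differed in more than fat cell genes. By the stated schedule, the change from induction to maintenance medium also fell between preadipocyte days 3 and 6 and after MEF day 8. Changes over these intervals, in Apln and the other members, thus cannot be told apart from the change of medium.

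**Figure D1:**
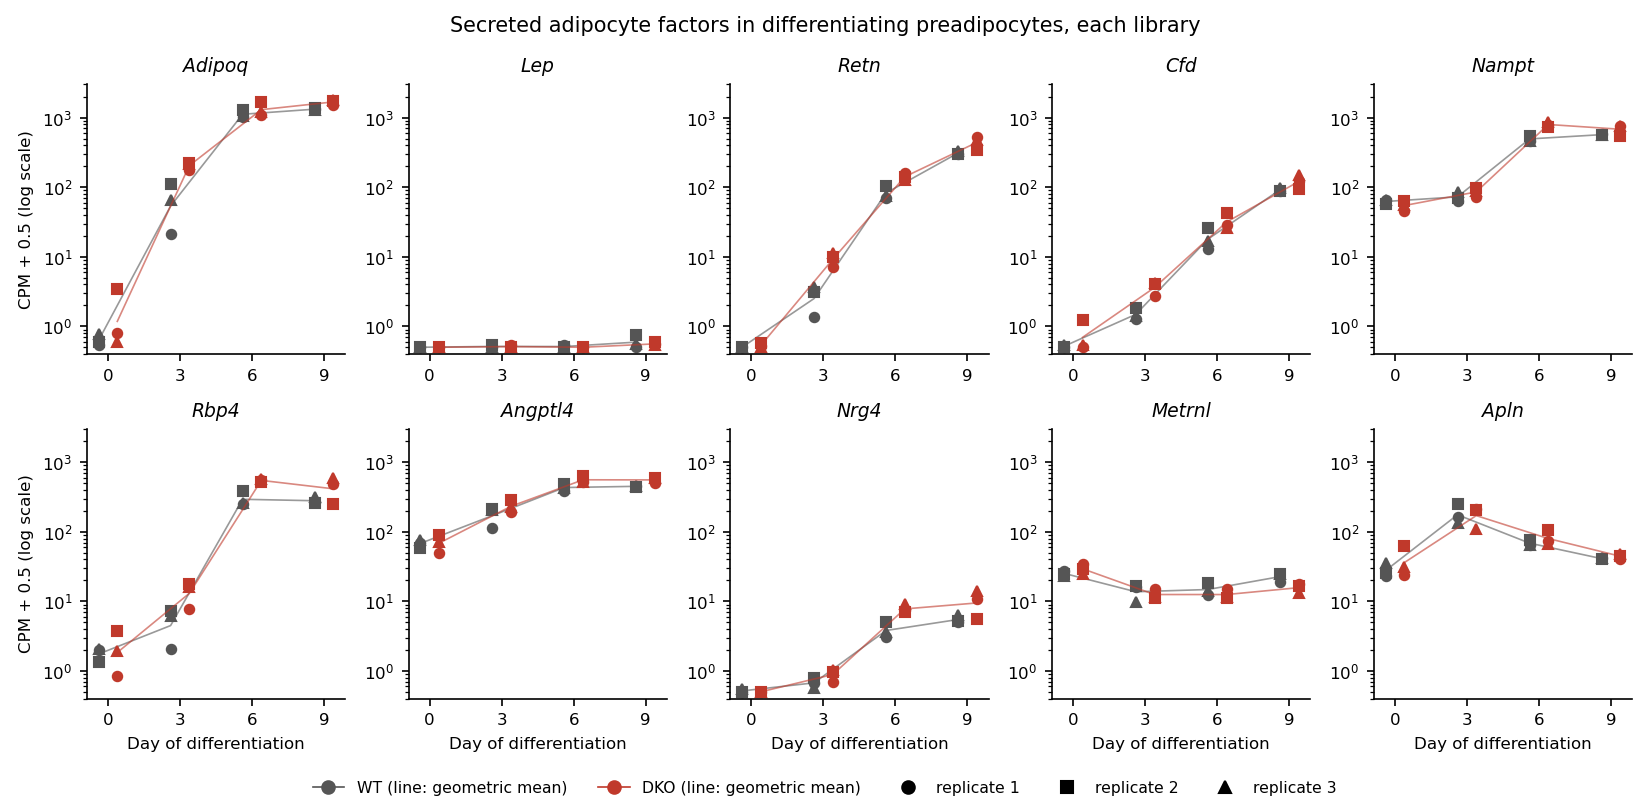
Level of each gene in each preadipocyte library (vertical axis, CPM + 0.5 on a log scale) by day of differentiation, with WT in grey, DKO in red, symbols for replicates and lines through the geometric means. Adipoq, Retn, Cfd, Rbp4 and Nrg4 climbed over days 3 and 6, Apln peaked at day 3 and Lep stayed at 0 to 0.261 CPM. Metrnl had its highest mean at day 0 in both genotypes, with libraries that overlapped those of day 9 in WT.

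**Figure D2:**
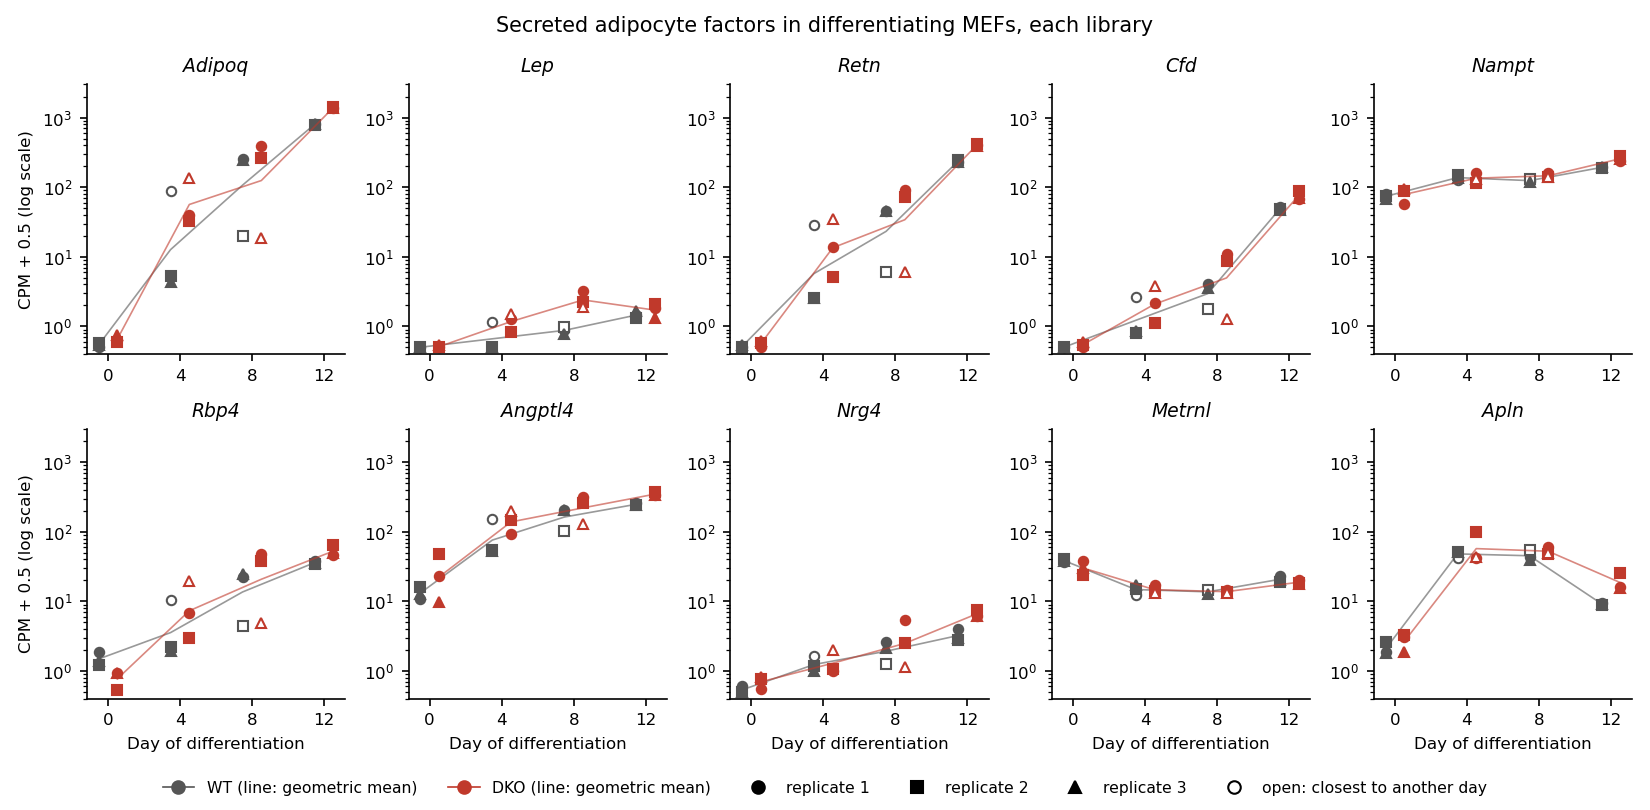
The same for the MEF libraries, where open symbols are the 4 libraries that lay closer to another day than their label. Open symbols at day 4 sit above the filled ones of their genotype for Adipoq, Retn and Rbp4 and those at day 8 sit below, and at day 12 the DKO symbols are above the WT ones for 8 of the 10 genes.

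Adipoq encodes adiponectin, a hormone of fat cells that raises insulin sensitivity. WT preadipocytes held 1, 2 and 6 counts at day 0, and the DKO held 11, 87 and 2, so DKO replicate 2 was high before induction. At day 3 the WT libraries read 20.7, 112 and 64.5 CPM and the DKO libraries 177, 222 and 216 CPM, with no overlap. At day 6 they read 1028, 1282 and 1063 CPM in WT and 1106, 1678 and 1196 CPM in DKO, and the genotypes overlapped. The rise from day 3 to day 6 was 17.1-fold in WT and 6.47-fold in DKO (edgeR adjusted p = 5.77e-06 and 0.000229). At day 9 the values were 1327, 1357 and 1291 CPM in WT and 1537, 1715 and 1816 CPM in DKO, again apart. The fitted difference at day 3 was 1.65 ± 0.55 on the log2 scale (SE; edgeR adjusted p = 0.300) and at day 9 it was 0.32 ± 0.09 (edgeR adjusted p = 0.0801), and neither was called.

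In MEFs Adipoq reached 810.2, 792 and 802 CPM at day 12 in WT and 1388, 1420.3 and 1384 CPM in DKO. Every DKO library was above every WT library, with a called difference of 0.78 ± 0.04 (1.72-fold, edgeR adjusted p = 1.67e-09). At day 4 the WT libraries read 88.0, 4.84 and 3.82 CPM, of which the first is the one labelled WT day 4 replicate 1, and the DKO libraries 39.3, 32.5 and 137 CPM, of which the last is the one labelled DKO day 4 replicate 3. With these libraries the difference was not called (adjusted p = 0.878 by edgeR). Without them the 2 DKO libraries were 8.29-fold above the 2 WT libraries (edgeR adjusted p = 0.000629), the 1 member called of 9 tested at day 4 (1.12% of all genes were called). At day 8 the libraries read 250.1, 19.7 and 244 CPM in WT and 387, 264 and 18.4 CPM in DKO, and Adipoq was not called with or without the libraries in doubt.

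Retn (chr8:3655770-3660110, plus strand) encodes resistin, which mouse fat cells secrete and which is linked to insulin resistance. Its counts in preadipocytes were 0 in all WT libraries at day 0. At day 3 the WT libraries read 0.882, 2.65 and 3.13 CPM against 6.56, 9.32 and 10.7 CPM in DKO, which did not overlap (difference 1.99 ± 0.45, edgeR adjusted p = 0.158). At day 6 they read 70.3, 105.0 and 75.1 CPM in WT and 160.5, 138 and 126 CPM in DKO, a called rise of 0.73 ± 0.16 (1.66-fold, edgeR adjusted p = 0.0188). At day 9 they read 301, 295 and 336 CPM in WT and 524, 339 and 479 CPM in DKO, apart by the narrowest margin at DKO replicate 2 and not called (0.49 ± 0.16, edgeR adjusted p = 0.114). Without that replicate the difference was 0.66 and was called (edgeR adjusted p = 0.00464), the 1 of 6 omissions with a call. Retn was also among the genes that rose after day 6, by 3.72-fold in WT and 3.16-fold in DKO (edgeR adjusted p = 7.82e-05 and 0.000337).

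MEFs at day 12 held 232, 246 and 230.4 CPM of Retn in WT and 399, 425 and 388 CPM in DKO. This was a called difference of 0.75 ± 0.05 (1.68-fold, edgeR adjusted p = 9.87e-09). Between day 8 and day 12 it rose 7.42-fold in WT and 7.24-fold in DKO (edgeR adjusted p = 0.0275 and 0.0241), and without the libraries in doubt by 2.39 and 2.32 on the log2 scale (edgeR adjusted p = 1.84e-05 and 1.53e-05). With all libraries but 1, the call stood in 1 of 6 omissions in WT, that of day 12 replicate 3 (edgeR adjusted p = 0.0496 to 0.0922), and in 4 of 6 in DKO, where it was lost without day 8 replicate 2 or 3 (edgeR adjusted p = 0.0301 to 0.0705). At day 8, with those libraries left out, DKO was 1.78-fold above WT (edgeR adjusted p = 0.0116).

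Lep (chr6:29060220-29073877, plus strand) encodes leptin, the satiety hormone that mature fat tissue releases in proportion to its lipid. It had 0 to 6 counts in every preadipocyte library, under or near the 3 counts taken as the floor (0.0833 to 0.158 CPM), so no difference could be detected there. MEFs had little more. The libraries at day 8 read 0.376, 0.493 and 0.269 CPM in WT and 2.77, 1.75 and 1.37 CPM in DKO, on 6 to 57 counts, and the groups did not overlap (difference 2.33 ± 0.40, edgeR adjusted p = 0.257). DESeq2 called this difference (adjusted p = 0.00239), and so did edgeR without the libraries in doubt (2.78 ± 0.44, adjusted p = 0.00905). By day 12 the genotypes overlapped, at 0.936, 0.799 and 1.14 CPM in WT and 1.31, 1.60 and 0.815 CPM in DKO.

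Cfd (chr10:79890853-79892655, plus strand) encodes complement factor D, or adipsin, the serine protease that starts the alternative complement pathway. In preadipocytes at day 3 the WT libraries held 0.794, 1.33 and 0.889 CPM and the DKO libraries 2.24, 3.53 and 3.76 CPM, without overlap (1.67 ± 0.31, edgeR adjusted p = 0.102). At day 6 they read 12.5, 25.8 and 16.2 CPM in WT and 27.9, 41.7 and 25.7 CPM in DKO and overlapped (0.77 ± 0.30, edgeR adjusted p = 0.118). Day 9 values were 88.0, 88.1 and 97.5 CPM in WT and 123, 95.3 and 148 CPM in DKO. The rise from day 6 to day 9 was 5.01-fold in WT and 3.84-fold in DKO (edgeR adjusted p = 0.000131 and 0.000743). In MEFs the gene rose late, from 3.54, 1.301 and 3.04 CPM at day 8 to 51.1, 47.5 and 46.4 CPM at day 12 in WT (18.5-fold, edgeR adjusted p = 0.000409, and 14.7-fold without the library labelled WT day 8 replicate 2 and the others in doubt). DKO MEFs at day 12 read 68.0, 88.9 and 70.2 CPM, all above WT, a called 1.54-fold difference (0.62 ± 0.10, edgeR adjusted p = 0.00189). It was under the fold threshold without DKO replicate 2 (0.49) and with scaling by library size alone (0.57).

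Rbp4 (chr19:38116629-38125281, minus strand) encodes the plasma carrier of retinol. The preadipocyte libraries at day 3 read 1.54, 6.71 and 5.63 CPM in WT and 7.28, 17.3 and 15.4 CPM in DKO, apart but not called (1.53 ± 0.57, edgeR adjusted p = 0.354). At day 6 they read 252, 382 and 261 CPM in WT and 558, 522 and 566 CPM in DKO. The DKO mean was the highest of the 16 groups, and the called difference was 0.85 ± 0.16 (1.80-fold, edgeR adjusted p = 0.0101). From day 3 to day 6 it rose 64.0-fold in WT and 41.2-fold in DKO (edgeR adjusted p = 4.44e-08 and 6.75e-08), the steepest climb over that interval among the members of each genotype with more than 10 counts in a day 3 library. Day 9 DKO libraries read 486, 251 and 585 CPM, where replicate 2 lay below all WT libraries (272, 257 and 312 CPM). Without that replicate the difference was 0.91 and called (edgeR adjusted p = 0.00464), the 1 of 6 omissions with a call. MEFs carried far less, 37.3, 34.4 and 35.0 CPM in WT and 45.4, 64.0 and 49.4 CPM in DKO at day 12, without overlap (0.55 ± 0.13, edgeR adjusted p = 0.0126, under the fold threshold). Without the libraries in doubt, Rbp4 at day 8 was 1.79-fold higher in DKO MEFs (edgeR adjusted p = 0.00916). In undifferentiated MEFs the order was the opposite: all DKO libraries (0.419, 0.0339 and 0.427 CPM) lay below all WT libraries (1.40, 0.717 and 0.907 CPM), on 1 to 40 counts and not called (-1.78 ± 0.70, edgeR adjusted p = 0.533).

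Nampt (chr12:32819545-32853349, plus strand) encodes the rate-limiting enzyme of NAD salvage, which is also found in blood as visfatin. It was transcribed at day 0, at 64.3, 56.7 and 64.7 CPM in WT preadipocytes and 45.6, 62.2 and 55.5 CPM in DKO. At day 6 the libraries read 467, 552 and 468 CPM in WT and 791, 734 and 876 CPM in DKO, with every DKO library above (0.66 ± 0.11, 1.58-fold, edgeR adjusted p = 0.00846). From day 3 it had risen 6.80-fold in WT and 9.32-fold in DKO (edgeR adjusted p = 3.36e-11 and 5.04e-12). Scaling by library size alone put the day 6 difference between genotypes at 0.56, under the fold threshold. At day 9 the genotypes overlapped, at 583, 567 and 560 CPM in WT and 762, 549.7 and 756 CPM in DKO. In MEFs at day 12 they were 193, 191 and 192 CPM in WT and 238, 282 and 251 CPM in DKO (0.40 ± 0.05, 1.32-fold, edgeR adjusted p = 4.00e-05), again without overlap but under the fold threshold. Gdap10 overlaps Nampt on the same strand, and how reads were divided between them is not known here.

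Angptl4 (chr17:33773750-33781830, minus strand) encodes an inhibitor of lipoprotein lipase and is a direct PPAR target. Its range was narrower than that of the fat cell hormones, from 58.9 CPM to 493 CPM in the WT preadipocyte libraries of days 0 and 6. At day 6 WT held 382, 493 and 430.4 CPM and DKO 522, 634 and 528 CPM, all above (0.33 ± 0.12, edgeR adjusted p = 0.0800), and at day 9 WT held 457, 437 and 458 CPM and DKO 499.9, 592 and 584 CPM, all above (0.28 ± 0.08, edgeR adjusted p = 0.0975). Neither was called. In MEFs at day 12 the values were 261, 239 and 246 CPM in WT and 334, 376 and 336 CPM in DKO, a 1.38-fold difference with an adjusted p of 4.44e-06 by edgeR that was under the fold threshold.

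Nrg4 (chr9:55220222-55326844, minus strand) encodes neuregulin 4, an EGF-like ligand of the ErbB receptors that brown fat makes in abundance. It was scarce: 1 count in 1 of the 6 undifferentiated preadipocyte libraries and 2 to 15 counts at day 3. By day 6 the WT libraries read 2.56, 4.47 and 3.15 CPM (68, 116 and 78 counts) and the DKO libraries 6.94, 6.49 and 8.59 CPM (152, 118 and 195 counts). The called difference, 1.08 ± 0.22 (2.12-fold, edgeR adjusted p = 0.0138), was the largest among the members at that day. At day 9 WT read 4.55, 4.65 and 5.84 CPM and DKO 10.4, 5.06 and 13.5 CPM, overlapping through DKO replicate 2 (0.91 ± 0.35, edgeR adjusted p = 0.155). Without that library the difference was 1.23 and called (edgeR adjusted p = 0.00628), the 1 of 6 omissions with a call. MEFs at day 12 read 3.50, 2.29 and 2.51 CPM in WT and 5.66, 7.004 and 5.76 CPM in DKO, a called 2.20-fold difference (1.14 ± 0.19, edgeR adjusted p = 0.000183).

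Metrnl (chr11:121701544-121716306, plus strand) encodes meteorin-like, a factor of fat, muscle and immune cells. It fell early, where most of the others rose. In preadipocytes it went from 27.2, 24.4 and 23.0 CPM at day 0 to 15.8, 15.9 and 9.25 CPM at day 3 in WT (1.83-fold lower, edgeR adjusted p = 0.00264) and from 34.5, 29.1 and 24.1 CPM to 14.6, 10.8 and 11.02 CPM in DKO (2.40-fold lower, edgeR adjusted p = 6.94e-05). It then rose 1.54-fold in WT between days 6 and 9 (edgeR adjusted p = 0.0350), a call that was lost in 4 of the 6 fits with 1 library left out, those without day 6 replicate 1 or 3 or day 9 replicate 2 or 3 (edgeR adjusted p up to 0.162). At day 9 the libraries read 18.7, 24.1 and 24.05 CPM in WT and 17.0, 16.4 and 12.7 CPM in DKO, the only member with every DKO library below every WT library at that day (-0.57 ± 0.15, edgeR adjusted p = 0.0758). It was not called there, but was called lower in 1 of 6 omissions, that of DKO replicate 2 (-0.62, edgeR adjusted p = 0.0424). In MEFs it fell from 36.8, 40.6 and 37.4 CPM at day 0 to 11.8, 14.6 and 16.9 CPM at day 4 in WT (2.65-fold lower, edgeR adjusted p = 7.77e-07, and 2.43-fold lower without the libraries in doubt). From day 8 to day 12 every library of the later day lay above every library of the earlier one in both genotypes. The rise was called in WT (0.62, edgeR adjusted p = 0.00459, and 0.67 without the libraries in doubt) and was 0.47 in DKO, under the fold threshold. In WT the change was also under that threshold without day 8 replicate 3 (0.57) or day 12 replicate 1 (0.53). The genotypes overlapped at every day in MEFs.

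Apln (chrX:48025146-48034853, minus strand) encodes apelin, a peptide that acts on blood vessels and heart through the apelin receptor. It peaked early. WT preadipocytes held 22.9, 24.8 and 35.4 CPM at day 0, 165, 248 and 131 CPM at day 3, 64.6, 76.7 and 64.2 CPM at day 6 and 41.4, 39.8 and 40.9 CPM at day 9. The rise to day 3 was 6.56-fold and the fall to day 6 was 2.65-fold (edgeR adjusted p = 6.13e-06 and 0.000842). DKO libraries followed, at 216, 207 and 111 CPM on day 3 and 72.5, 106 and 65.7 CPM on day 6, and overlapped WT at all 4 days. Between days 6 and 9 Apln was 0.75 lower in WT and 0.88 lower in DKO on the log2 scale, with an edgeR adjusted p of 0.0939 and 0.0558. Same-numbered libraries of these 2 days deviated together, though no label ties the numbers to cultures. With the replicate number as a block in these libraries, both falls were called (-0.77 and -0.85, edgeR adjusted p = 2.16e-05 and 0.00224). A block over all days left both uncalled (edgeR adjusted p = 0.0683 and 0.0501).

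WT MEFs held 1.37, 2.08 and 1.32 CPM of Apln at day 0 and 41.9, 51.1 and 50.5 CPM at day 4, a 30.0-fold rise (edgeR adjusted p = 9.10e-09). At day 12 it had fallen to 9.07, 8.46 and 8.67 CPM in WT, 5.17-fold below day 8 (edgeR adjusted p = 1.29e-05), and to 15.8, 24.8 and 15.2 CPM in DKO, 2.81-fold below (edgeR adjusted p = 0.000492). Without the libraries in doubt the rise to day 4 in WT was 31.9-fold, and the falls to day 12 were 4.70-fold in WT and 2.90-fold in DKO. DKO MEFs thus held more Apln than WT at day 12, by a called 1.07 ± 0.19 (2.09-fold, edgeR adjusted p = 0.00256).

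Set side by side, the genotype comparisons gave the following counts. In preadipocytes at day 6, 4 of the 9 tested members were called, all higher in DKO (Retn, Nampt, Rbp4 and Nrg4), where 5.03% of all tested genes were called higher and 11.6% in either direction. Over all genes the split was 739 higher and 960 lower, and 502 higher and 1244 lower when scaled by library size alone, which moved the median of all genes to -0.11. The DKO libraries lay above all WT libraries for 5 of the 9, against 24.7% of all genes. The members' median difference was 0.66 and that of all genes -0.01. The counts hung on single libraries: 0 members were called once WT replicate 3 was left out, and 2 once DKO replicate 3 was. At days 0, 3 and 9 edgeR called 0 of 5, 0 of 8 and 0 of 9 tested members (0.218%, 0.337% and 1.24% of all genes), with 0, 4 and 6 members at an unadjusted p under 0.05. DESeq2 called 0, 2 and 0, and limma-voom called 0 at each. All DKO libraries lay above all WT libraries for 4 of 8 members at day 3 (10.6% of all genes) and for 3 of 9 at day 9 (22.2% of all genes), and below them for 1 of 9 at day 9 (12.4% of all genes). In MEFs at day 12, 5 of 10 members were called, all higher in DKO (Adipoq, Retn, Cfd, Nrg4 and Apln), where 3.92% of all genes were called higher and 7.98% in either direction. Over all genes 601 were higher and 621 lower, or 479 and 765 when scaled by library size alone. With Nampt, Rbp4 and Angptl4, 8 of 10 passed the adjusted p at any fold, as did 33% of all genes. The 1 fit used for the day comparisons shares its estimate of the spread over all 24 MEF libraries, with the 4 closer to another day among them. In that fit edgeR called 0 of the 10 at MEF day 12, with differences of like size (Adipoq 0.80 at an adjusted p of 0.739, Retn 0.77 at 0.710, Cfd 0.65 at 0.641, Nrg4 1.15 at 0.309 and Apln 1.09 at 0.0547). What those 4 libraries added to the spread was not tested. At MEF day 12 all DKO libraries lay above all WT libraries for 8 of 10, against 26.5% of all genes. At MEF days 0, 4 and 8 edgeR called 0 of 5, 0 of 10 and 0 of 10 (0.102%, 0.0905% and 0.0595% of all genes), with 1, 0 and 2 at an unadjusted p under 0.05, DESeq2 called 0, 0 and 1, and limma-voom 0 at each. The DKO libraries lay below WT for 1 of the 5 at day 0 (Rbp4; 9.74% of all genes) and above WT for 2 of the 10 at day 8 (Lep and Nampt; 8.24% of all genes). With the libraries in doubt left out, 4 members were called at day 8, all higher in DKO (Retn, Rbp4, Lep and Cfd; 4.00% of all genes were called).

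**Figure D3:**
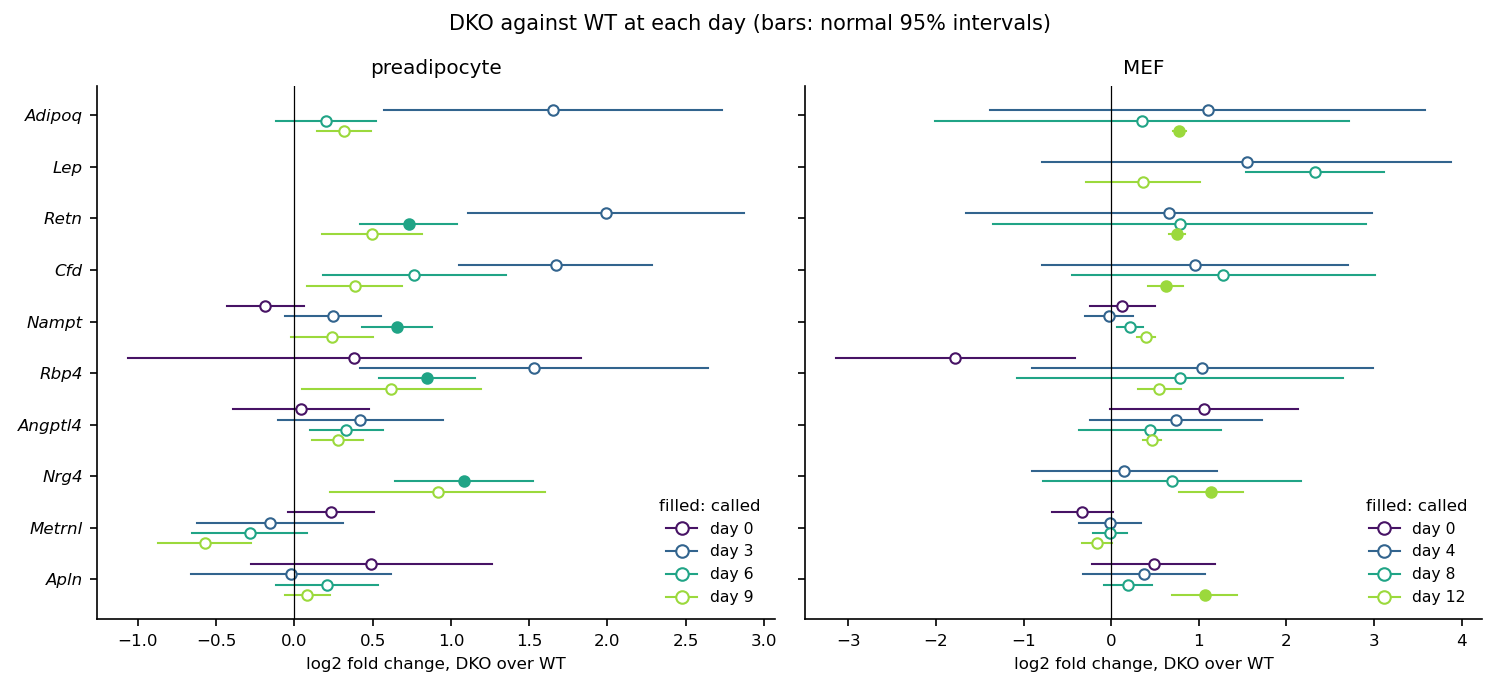
Difference between DKO and WT for each gene (horizontal axis, log2 fold change, DKO over WT) at each day, with preadipocytes on the left and MEFs on the right on their own scales. Points are edgeR estimates with normal 95% intervals, and filled points were called: 4 at preadipocyte day 6 and 5 at MEF day 12, all right of 0.

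Whether the DKO difference itself changed between neighbouring days was tested in 1 fit over the 24 libraries of a cell type. No member was called by edgeR or DESeq2 in any of the 6 intervals, where edgeR called 0.0948%, 0.628% and 0% of all genes in the 3 preadipocyte intervals and 0.00588%, 0% and 0.00588% in the 3 MEF intervals. At an unadjusted p under 0.05, edgeR had 2 members between preadipocyte days 3 and 6 (Retn and Nampt), 1 between MEF days 8 and 12 (Apln) and 0 in the other 4 intervals. So the calls at preadipocyte day 6 and their absence at day 3 do not show that the difference grew. For Retn the fitted difference was 1.99 at day 3, 0.73 at day 6 and 0.49 at day 9. Without the libraries in doubt, Rbp4 was called between MEF days 0 and 4, with a DKO difference larger by 3.27 ± 0.70 (edgeR adjusted p = 0.0414; 1.05% of all genes), and Adipoq between days 4 and 8, with a difference smaller by 2.65 (-2.65 ± 0.26, edgeR adjusted p = 0.000265; 0.0347% of all genes).

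Cell type markers also differed between the genotypes. The summed level of 12 adipocyte markers, which include Pparg, Fabp4 and Plin1, was 20078 to 24825 CPM in WT and 27955 to 35745 CPM in DKO preadipocytes at day 6, and 15440.1 to 15832 CPM in WT and 24499 to 26727 CPM in DKO MEFs at day 12. Of these 12 markers, 3 were called at preadipocyte day 6 and 9 at MEF day 12, all higher. The 10 preadipocyte and fibroblast markers, such as Pdgfra, Col1a1 and Lum, summed to 10182 to 12164 CPM in WT and 3631 to 5212 CPM in DKO at preadipocyte day 6, and 5 of 10 were called lower and Dlk1 higher. At MEF day 12 they summed to 16294 to 16854 CPM in WT and 9459 to 10497 CPM in DKO, and 5 of 10 were called lower. Before induction, at preadipocyte day 0, their order was the opposite, at 21208 to 22378 CPM in WT and 26051 to 36157 CPM in DKO. No member was called between the genotypes at that day. The 8 macrophage markers, such as Adgre1, Csf1r and Lyz2, all had reads and summed to 6502 to 10708 CPM in WT and 2201 to 5101 CPM in DKO at preadipocyte day 6, with Lyz2 called lower. At MEF day 12 they summed to 5267 to 5318 CPM in WT and 3464 to 3962 CPM in DKO, and Lyz2 was called lower. The 8 endothelial markers summed to at most 10.7 CPM at preadipocyte day 6 and 18.6 CPM at MEF day 12. At preadipocyte day 3 the adipocyte markers summed to 555 to 1959 CPM in WT and 3309 to 4754 CPM in DKO, and at day 9 to 25591 to 26371 CPM in WT and 33297 to 39365 CPM in DKO. The macrophage markers summed to 60.9 to 233 CPM in WT and 47.6 to 196 CPM in DKO at preadipocyte day 3, far below day 6. The part of these cell types in the members' differences between genotypes or days was not tested. At preadipocyte day 9, DKO replicate 2 had 11941 CPM of preadipocyte and fibroblast markers, against 5657 and 4168 CPM in the others. It was also the library with the lowest Retn, Cfd, Nampt, Rbp4 and Nrg4 of the 3. Yet it had the highest Angptl4 and lay between the others for Adipoq and Metrnl. Its adipocyte markers summed to 33297 CPM, against 33993 and 39365 CPM in the others.

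**Figure D4:**
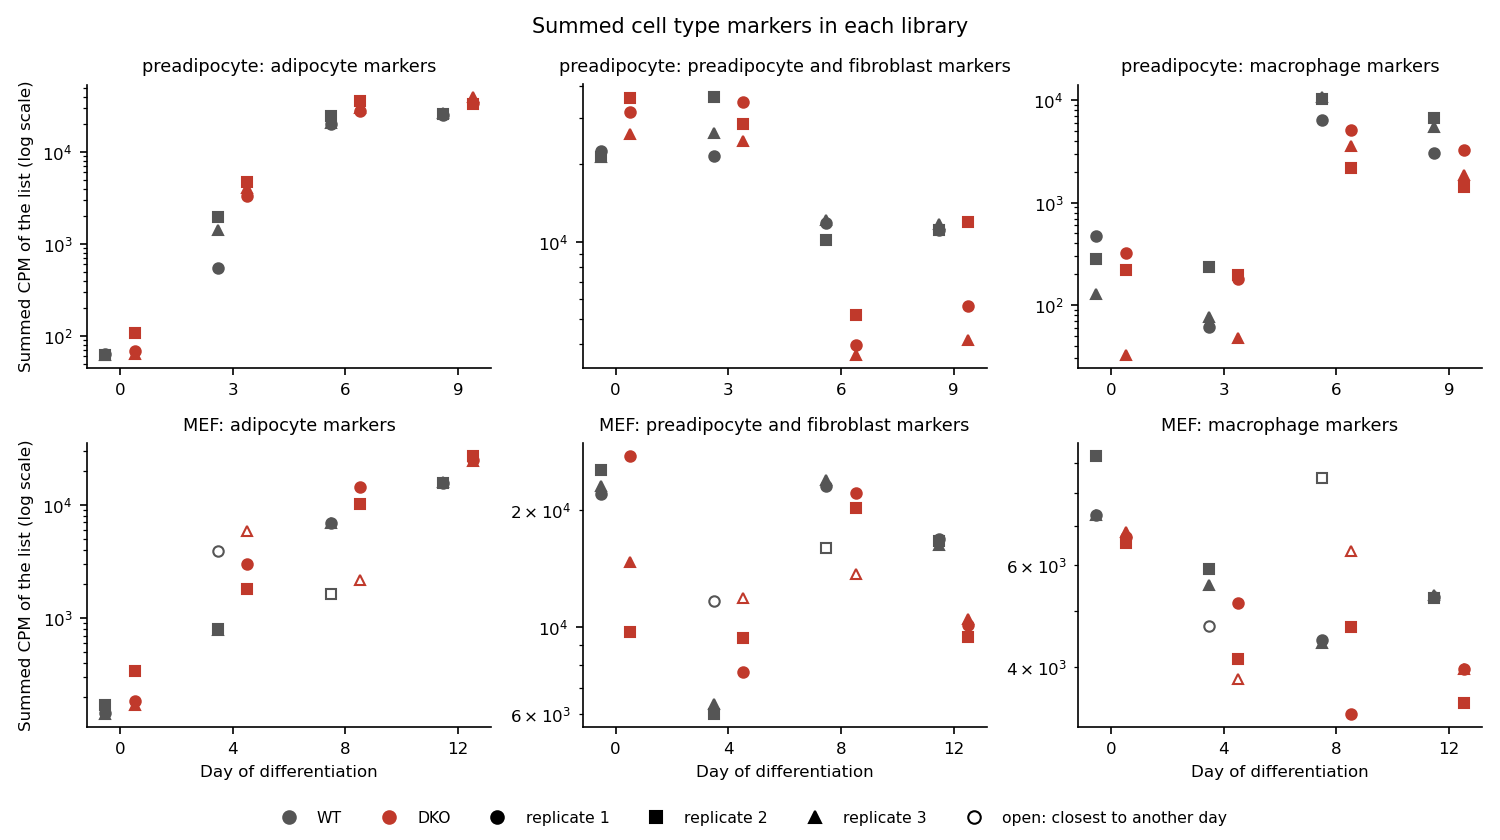
Summed CPM of the adipocyte, preadipocyte and fibroblast, and macrophage markers in each library (vertical axis, log scale) by day, with preadipocytes above and MEFs below and open symbols for the 4 MEF libraries closer to another day. Adipocyte markers of the library labelled WT MEF day 4 replicate 1 stand at 3916 CPM and those of the library labelled WT MEF day 8 replicate 2 at 1644 CPM, which is the reverse of the order of their labels.

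Receptors and binding partners of the 10 factors were read from the same fits. Of 16 named genes 15 were found, and 8 to 12 passed the filter at each day. edgeR called 0 between the genotypes in preadipocytes at days 0, 3, 6 and 9, with 0, 4, 5 and 5 at an unadjusted p under 0.05, and DESeq2 called 0, 1, 1 and 0. In MEFs at days 0, 4 and 8 edgeR also called 0, with 2, 2 and 1 at an unadjusted p under 0.05, and DESeq2 called 2, 0 and 0. limma-voom called 0 in these 7 comparisons. At MEF day 12, 2 of 10 tested were called, both lower in DKO, where 4.05% of all genes were called lower. Lepr, the leptin receptor, measured 7.89 ± 0.545 CPM in WT (SD over 3 libraries) and 4.55 ± 0.214 CPM in DKO (edgeR adjusted p = 0.000188). Erbb3, which encodes 1 of the ErbB receptors, was at 55.7 ± 0.500 CPM in WT and 29.8 ± 5.81 CPM in DKO (edgeR adjusted p = 0.000338). At that day Nrg4 was higher and Erbb3 was lower in the same DKO cultures, and no link between them was tested.

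A further 42 secreted factors of fat tissue, which exclude the 10, went both ways. At preadipocyte day 6, 8 of 35 tested were called higher in DKO and 5 lower, with a median of -0.08, where 5.03% of all genes were called higher and 6.53% lower. Agt, the precursor of angiotensin, rose from 469 ± 89.3 to 975 ± 161 CPM (edgeR adjusted p = 0.00595), Vegfa, the endothelial growth factor, from 187 ± 21.001 to 308 ± 2.82 CPM (edgeR adjusted p = 0.00474) and Itih4 from 1.21 ± 0.563 to 8.17 ± 3.52 CPM (edgeR adjusted p = 0.0104). Those with the smallest p among the lower were the adiponectin paralogue C1qtnf6, at 38.4 ± 2.97 CPM in WT and 15.4 ± 1.48 CPM in DKO (edgeR adjusted p = 0.000535), and the matrix proteins Fbn1 and Sparc. At MEF day 12, 5 of 35 were called higher and 6 lower, against 3.92% and 4.05% of all genes. Agt was again higher, at 366 ± 16.6 CPM in WT and 629 ± 29.2 CPM in DKO (edgeR adjusted p = 9.78e-09), and C1qtnf6 again lower, at 57.6 ± 2.76 against 35.7 ± 3.50 CPM (edgeR adjusted p = 6.78e-07). At preadipocyte day 9 Agt was the 1 gene called of 34 (1.24% of all genes were called), at 557 ± 40.2 CPM in WT and 890.3 ± 100.1 CPM in DKO (edgeR adjusted p = 0.0424). edgeR called 0 of these factors at preadipocyte days 0 and 3 and at MEF days 0, 4 and 8, with 5, 5, 6, 4 and 8 at an unadjusted p under 0.05. DESeq2 called 0, 3, 1, 0 and 1 there, and limma-voom 0 at each.

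The course of each member over the 16 groups was set beside that of all 13917 genes with a mean of at least 1 CPM, as a description with no test, since the groups share their time course and cell types. The closest to Adipoq were Cidec (Pearson r of group means of log2(CPM + 0.5) 0.995), Slc36a2 (0.992) and Acsl1 (0.991), of which Cidec coats lipid droplets and Acsl1 activates fatty acids. Retn lay closest to Thrsp (0.996), Ankef1 and A530016L24Rik, and Cfd to Lncbate1 (0.995), Aldh3b2 and Acaca, the enzyme that starts fatty acid synthesis. Rbp4 lay closest to Idh3a (0.988), D10Jhu81e and Cycs, Nampt to Mrpl1 (0.991), Cbr4 and Usp8, and Nrg4 to Sod1 (0.989), Mrps7 and Rmdn3. Cycs, Idh3a, Mrpl1 and Mrps7 encode mitochondrial proteins. Angptl4 had Ppa1 (0.965), Nabp1 and 3110045C21Rik, Metrnl had Itga4 (0.961), Rasa4 and Iqgap1, Apln had Enc1 (0.936), Pgm3 and Nfil3, and Lep, near the floor, had Myl4 (0.884), Slc22a8 and Farsa. No member was among the 3 closest genes of another. Over the 16 groups Metrnl was negatively correlated with Adipoq (r = -0.71) and more so with Apln (r = -0.82). Metrnl and Adipoq did not run in opposite directions throughout, as both rose from day 8 to day 12 in WT and DKO MEFs.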

How the data were processed

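RNA was sequenced from 48 cultures as paired reads of 50 bases. Reads were trimmed by the authors (Cutadapt 1.18), mapped in STAR 2.7.0f against mm10, and deposited in the form of expected counts per gene from RSEM 1.3.0. These estimated counts were rounded to whole numbers. The 10 members and the gene lists were chosen with earlier results of these data known. Genotypes were compared per day, and days and the change of the DKO effect in 1 fit per cell type, by edgeR 4.0.16 (robust quasi-likelihood test, TMM scaling, filterByExpr) in R 4.3.3, tested on simulated data. A call needed a Benjamini-Hochberg adjusted p under 0.05 and a 1.5-fold change (for the change of effect, the adjusted p alone). CPM were TMM-scaled over the 24 libraries of a cell type. No fold is given where a group had at most 10 counts in every library. All 10 members are named. From the other lists, the 3 called genes with the smallest p in each direction were eligible to be named. Library totals of 18962483 to 36006696 counts put a floor of 3 counts at 0.0833 to 0.158 CPM, for counting error only. Replicate numbers did not pair the genotypes. Between neighbouring days, same-numbered libraries deviated together only in preadipocytes, for DKO days 0 and 3 (correlations 0.464 to 0.600) and for days 6 and 9 (WT 0.170 to 0.524, DKO 0.422 to 0.538). Alternatives were DESeq2 1.42.0, limma-voom (limma 3.58.1), other scalings, filters and thresholds, blocks and left-out libraries. In the simulated genotype comparison of preadipocyte day 6, 5.85% of edgeR calls, 16% of DESeq2 calls and 5.88% of limma-voom calls were false. This was 1 simulated draw with 4-fold changes and with the spread estimated by edgeR. It cannot rank the tools at other days, in MEFs or for genes near the floor. Calls by DESeq2 alone were still treated as the less certain. Leaving out the 4 MEF libraries closer to another day was chosen after seeing the data, and calls gained by it are not independent results. The omission of preadipocyte day 9 DKO replicate 2 was likewise singled out after seeing the data. It had the lowest Retn, Rbp4 and Nrg4 of its group, so leaving it out by itself widens those differences. Calls gained without it are not independent results either.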

Additional observations from a re-analysis of the deposited data

How the results depend on the processing

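No called difference between genotypes or days changed direction under the alternatives tried, but differences that were not called did. These were Rbp4 at preadipocyte day 0 under limma-voom (-0.087), Apln at preadipocyte day 9 scaled by library size alone (-0.015), Nrg4 at MEF day 4 (-0.10) and Metrnl at MEF day 8 (0.067) without the 4 MEF libraries closer to another day, and Metrnl at MEF day 8 in 1 fit over all days (0.0052). With 1 library left out, those that changed direction ranged as follows on the log2 scale. At preadipocyte day 0 the range was Rbp4 -0.54 to 0.89, Angptl4 -0.17 to 0.25 and Apln -0.038 to 0.77. At preadipocyte day 3 the range was Apln -0.21 to 0.27. At preadipocyte day 6 the range was Apln -0.0054 to 0.33. At MEF day 0 the range was Nampt -0.015 to 0.32. At MEF day 4 the range was Retn -0.28 to 3.05, Nampt -0.17 to 0.085, Rbp4 -0.020 to 2.54, Nrg4 -0.52 to 0.56, Metrnl -0.15 to 0.12 and Apln -0.16 to 0.59. At MEF day 8 the range was Adipoq -0.30 to 0.90, Nrg4 -0.18 to 1.16 and Metrnl -0.056 to 0.037. None of these was called with any 1 library left out. The number of members called between genotypes moved most in the following settings. At preadipocyte day 3, where 0 were called, DESeq2 called 2, no filter 1, the replicate block 3 and 1 fit over all days 1. At preadipocyte day 6 (4 called) a threshold of 2-fold left 1, and leaving out 1 library gave 0 to 5. At day 9 (0 called) leaving out 1 library gave 0 to 4, with 4 without DKO replicate 2. At MEF day 8 (0 called) DESeq2 called 1. At MEF day 12 (5 called) no fold threshold gave 8, a 2-fold threshold 2, 1 fit over all days 0, and leaving out 1 library 4 to 6. Without the 4 MEF libraries closer to another day, 1 member was called at day 4 and 4 at day 8, and 1 for the change of effect in each of the first 2 intervals. Between days 4 and 8 (0 called) that setting gave 7 in WT and 6 in DKO, and leaving out 1 library gave 0 to 5 in WT (5 without WT day 4 replicate 1) and 0 to 2 in DKO (2 without DKO day 8 replicate 3). Between MEF days 8 and 12 in WT (5 called), DESeq2 called 3, library size alone 3, no filter 2, and leaving out 1 library 3 to 5 (3 without WT day 8 replicate 3 or WT day 12 replicate 1). The cause was not tested. The replicate block within neighbouring days added Apln between preadipocyte days 6 and 9 and gave 8 in place of 9 calls for DKO days 0 and 3, where Nrg4 was not tested. Replicate numbers of the genotypes shared correlations of -0.292 to 0.606 in preadipocytes and -0.770 to 0.703 in MEFs. Over all genes DESeq2 called 145, 408 and 827 at preadipocyte days 0, 3 and 9, against 33, 51 and 183 by edgeR, and 166, 91 and 97 at MEF days 0, 4 and 8, against 16, 14 and 9. Scaling by library size alone called 327 at preadipocyte day 9 (53 higher, 274 lower). Lep and the other genes near the floor are limited by depth.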
